A study of Citrus x clementina and Citrus japonica with 6 samples.

Results

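Sucrose synthesis, sucrose cleavage and the first phosphorylation of hexoses were followed in fruit of kumquat (Citrus japonica, also placed in the genus Fortunella) and of Clementine mandarin (Citrus x clementina). Members were the gene models whose first named KEGG entry was sucrose synthase, sucrose-phosphate synthase, sucrose-6-phosphatase, beta-fructofuranosidase, invertase, hexokinase or fructokinase. The rule gave 56 of 30139 models. These were 4 of sucrose-phosphate synthase, 17 of sucrose synthase, 7 of beta-fructofuranosidase (invertase), 7 of hexokinase and 9 of fructokinase, together with 12 of 6-phosphofructokinase, a glycolytic enzyme whose name contains the word fructokinase. No model had sucrose-6-phosphatase as its first name.

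The libraries were 3 from kumquat and 3 from clementine. Each pooled untreated fruit of 5 stages. Kumquat fruit was taken 15, 30 and 45 days after flowering and again on days 80 and 120, and clementine fruit at the same early ages and then on days 100 and 180. Species and fruit age therefore differ together and cannot be told apart. The stage label of the kumquat libraries names clementine fruit, while their organism and cultivar labels name kumquat. The material came from 3 individual plants, without a link from plant to library, so p-values measure the spread between libraries, which may be technical.

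Levels are in FPKM, fragments scaled to the length of the model and the size of the library, which can be compared between models. FPKM summed to 691560 to 707892 per kumquat library and to 695322 to 700617 per clementine library. Low values pointed to depths of 0.877 to 0.927 in kumquat and 0.966 and 0.993 in clementine replicates 1 and 3, relative to clementine replicate 2, where the most frequent ratio of low values held 38 to 71 models in kumquat. The number of models above 0 was 25523 to 25807 in kumquat and 26050 to 26285 in clementine. The identifiers are those of clementine models, so a lower level in kumquat and a poorer match of kumquat reads to a clementine model cannot be told apart. In pooled fruit tissue, fewer cells of a type and less RNA per cell cannot be told apart either. The 35 models of light-harvesting proteins and the small chain of Rubisco, which mark green tissue, summed to 7754 to 8581 FPKM in kumquat and 8417 to 9152 in clementine, with overlap. Of the 28 tested, 4 were higher in kumquat and 14 lower, against 29.9% and 27.1% of all tested models. None of the 35 was at 0 in all libraries. The seed list held only 1 model, vicilin-like, at 83.2 ± 2.51 FPKM in kumquat and 30.6 ± 1.49 in clementine (SD, n = 3 each). The part of either tissue in the results below was not tested.

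Citrus fruit imports most of its carbon as sucrose. Sucrose-phosphate synthase makes sucrose phosphate from UDP-glucose and fructose 6-phosphate, and sucrose-phosphate phosphatase then releases sucrose. Sucrose synthase splits sucrose reversibly into UDP-glucose and fructose, whereas invertase splits it irreversibly into glucose and fructose. Hexokinase and fructokinase phosphorylate the freed hexoses, and 6-phosphofructokinase commits fructose 6-phosphate to glycolysis. In citrus, the sugar stored in juice sacs is a main determinant of sweetness.

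Summed over models, sucrose-phosphate synthase and hexokinase had more FPKM in every kumquat library than in any clementine library. Sucrose synthase and 6-phosphofructokinase had less in every kumquat library, and invertase and fructokinase overlapped between the species. The 4 models of sucrose-phosphate synthase summed to 110.8 ± 5.34 FPKM in kumquat and 76.5 ± 0.953 in clementine (SD, n = 3 each, here and below), a ratio of 1.45. Hexokinase summed to 129 ± 4.29 in kumquat and 91.5 ± 2.62 in clementine, a ratio of 1.41. Sucrose synthase, the most abundant of the enzymes, summed to 767 ± 28.8 in kumquat and 1057 ± 26.4 in clementine, a ratio of 0.726. Phosphofructokinase followed at 414 ± 9.40 in kumquat and 508 ± 16.0 in clementine, a ratio of 0.815. Invertase was at 95.5 ± 4.11 in kumquat and 97.9 ± 4.11 in clementine, and fructokinase at 214 ± 8.06 in kumquat and 210 ± 12.3 in clementine. Sums are descriptions, with no test. Within a library, the sum of sucrose-phosphate synthase was 0.144 ± 0.00325 of that of sucrose synthase in kumquat and 0.0724 ± 0.00246 in clementine.

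**Figure D1:**
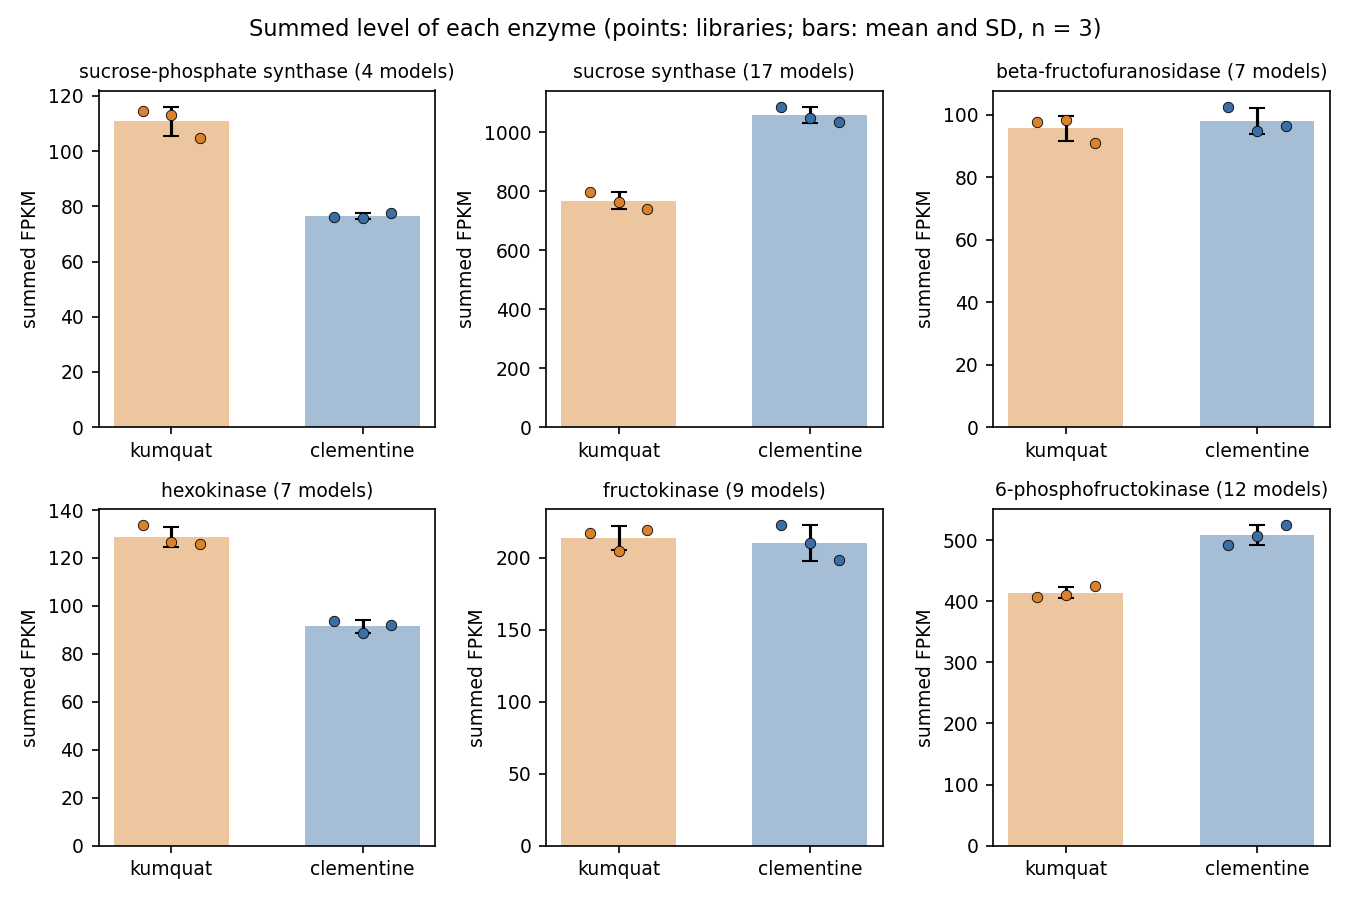
Summed FPKM of each enzyme per library (points), with the mean and SD of 3 kumquat and 3 clementine libraries (bars). The kumquat points lie above the clementine points for sucrose-phosphate synthase and hexokinase, below them for sucrose synthase and 6-phosphofructokinase, and among them for beta-fructofuranosidase and fructokinase.

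Single models were compared by limma on log2(FPKM + 1), kumquat minus clementine, a scale that understates the change of low models. The test covered the 22050 models that reached 1 FPKM in 3 or more libraries, among them 46 of the 56 members. The 10 members not tested reached at most 2.45 FPKM. Calls were made where the p adjusted by Benjamini-Hochberg over those 22050 models lay under 0.05. Each adjusted p below was adjusted over all that its own fit tested. In the fit over summed protein matches these were 17583 matches, and with another filter they were the models that passed it. Of the 46 tested members, 69.6% were called, against 57.1% of all tested models. Among them 15 were higher in kumquat (32.6%, against 29.9% of all tested models) and 17 were lower (37.0%, against 27.1%). Called members that also differed 2-fold or more were 19.6%, against 24.5% of all models. They were 4 higher members, against 12.4% of all models higher, and 5 lower ones, all sucrose synthases, against 12.1%. Of the 46 tested members, 6 reached the filter through 1 species alone, 2 through kumquat and 4 through clementine. These include 1 of the 4 (Ciclev10008827m) and 3 of the 5 (Ciclev10007485m, Ciclev10007488m and Ciclev10019255m), whose direction the filter set, so nothing is read from these 2-fold counts. The median difference was 0.07 for the members and 0.04 for all tested models, and the median size of the difference was 0.45 for the members and 0.50 for all. Most members thus moved less than 2-fold, and their share of calls lay near that of all models on the higher side. Among the 17 lower members, 7 were models of a single sucrose synthase match, described below. When FPKM were added up over models with an equal protein match, 36 matches of members were tested. Of these, 15 were higher, against 34.5% of all matches, and 10 were lower, against 30% (64.5% of all matches were called in either direction). On the lower side, the share of the 36 thus lay near that of all matches, unlike that of single models. No summed match of members was called 2-fold lower, so that count was 0 in place of 5. Leaving out each library in turn ended the call of 12 of the 32 called members. The other 20, 9 higher and 11 lower, kept it in each such fit.

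**Figure D2:**
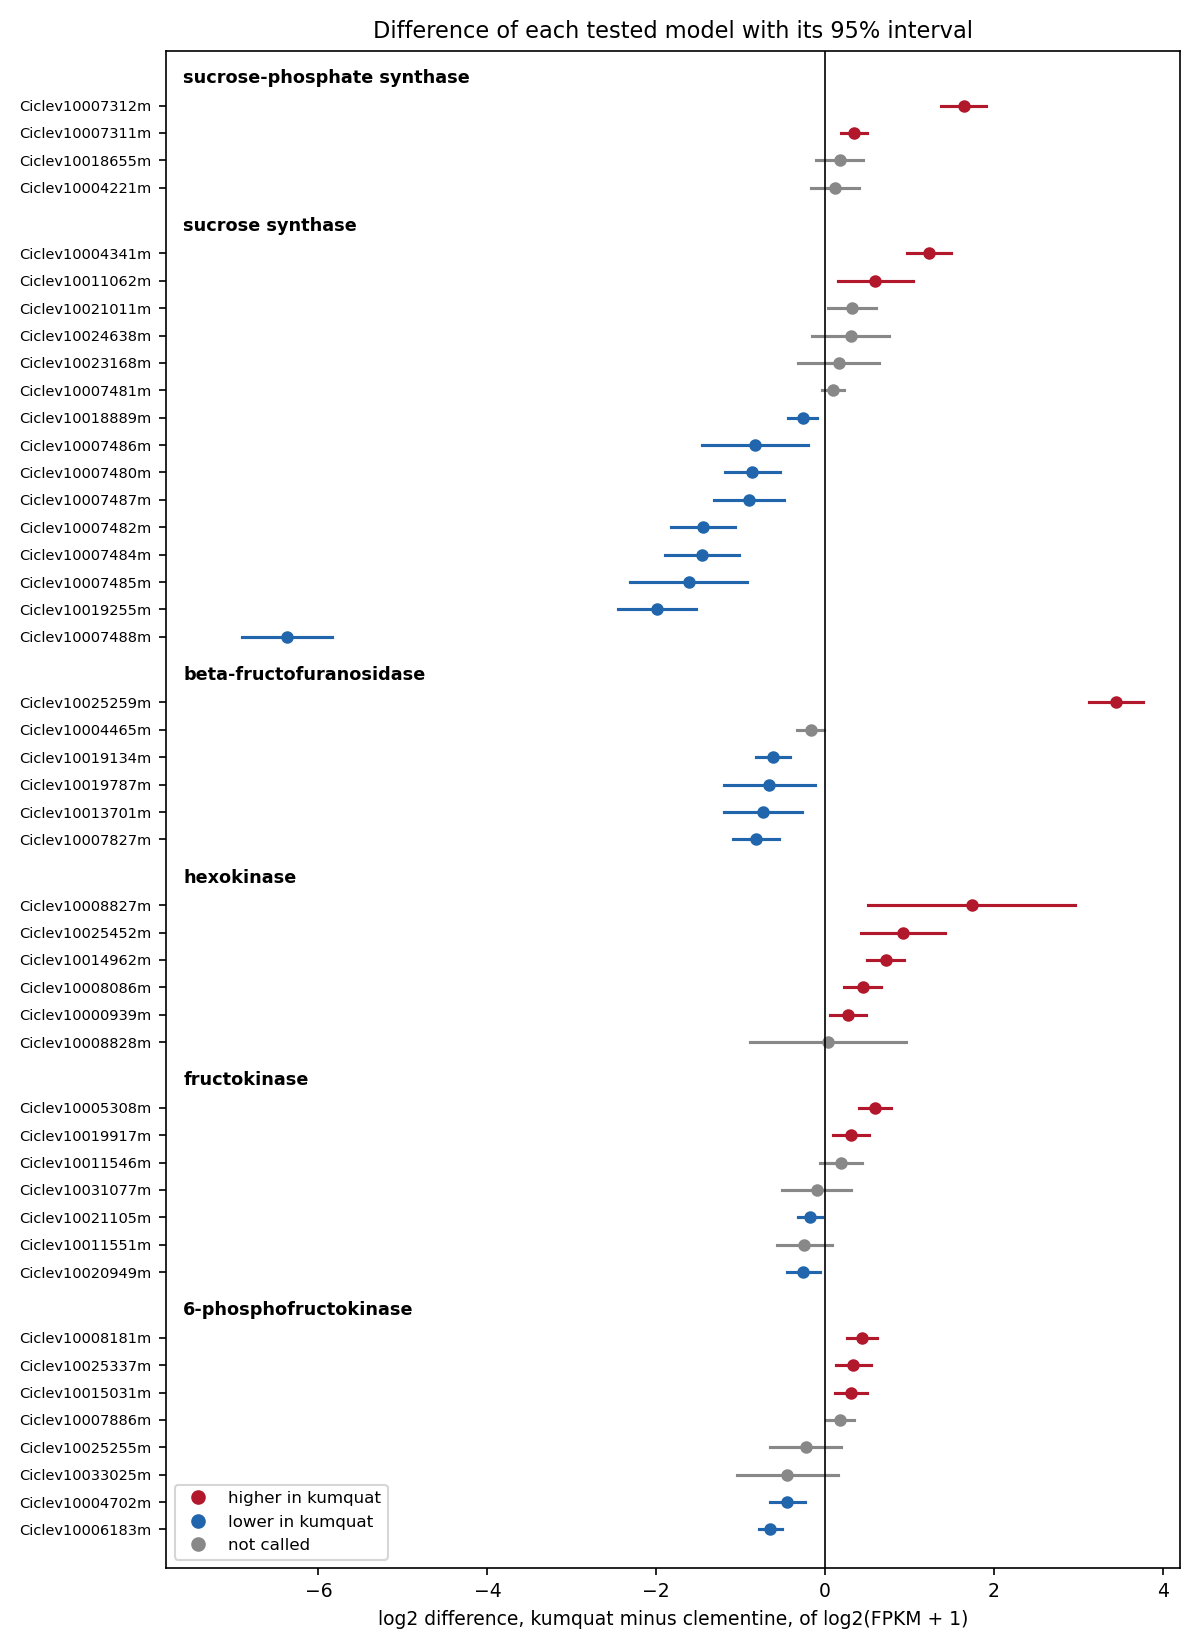
Log2 difference of log2(FPKM + 1), kumquat minus clementine, for each of the 46 tested models (points) with its 95% interval (lines), grouped by enzyme and coloured by call. Ciclev10025259m lies farthest to the right at 3.45 and Ciclev10007488m farthest to the left at -6.38, while most other models lie within 1 of 0.

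Both called models of sucrose-phosphate synthase were higher in kumquat, and none of the 4 was lower. Over all tested models, 29.9% were higher and 27.1% lower. Ciclev10007312m stood at 24.6, 26.5 and 25.8 FPKM in kumquat, against 6.33, 8.19 and 8.16 in clementine. Every kumquat library was above every clementine library, with a ratio of means of 3.39 and a log2 difference of 1.64 ± 0.114 (SE, adjusted p = 1.81e-05). The most abundant model of the enzyme, Ciclev10007311m, stood at 71.3, 67.9 and 62.4 in kumquat, against 54.4, 51.6 and 52.5 in clementine, a log2 difference of 0.34 ± 0.065 (adjusted p = 0.00315). Ciclev10004221m overlapped between the species, at 10.3 ± 1.26 in kumquat and 9.38 ± 0.417 in clementine, and the 95% interval of its log2 difference ran from -0.17 to 0.40. Ciclev10018655m was at 7.51 to 7.93 in kumquat and 6.11 to 7.10 in clementine and was not called (adjusted p = 0.247). Ciclev10007312m held 23.2 ± 1.57% of the enzyme's summed FPKM in kumquat and 9.88 ± 1.36% in clementine. Each of the 4 models had a protein match of its own, and both calls held without each library.

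Most of the sucrose synthase level came from 1 protein match. Of the enzyme's 17 models, 9 with consecutive identifiers, Ciclev10007480m to Ciclev10007488m, had the same best protein match, clementine locus CICLE_v10007483mg. The sources used here do not give how reads were divided among models this similar, so their separate values are uncertain and their sum is the firmer measure. The sum stood at 578, 568 and 554 FPKM in kumquat, against 866, 849 and 842 in clementine. All kumquat libraries lay below all clementine libraries, and in the fit over summed matches the log2 difference was -0.59 ± 0.053 (adjusted p = 1.56e-05), with a ratio of means of 0.665.

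Within this sum the models moved very unequally. Ciclev10007488m was at 2.47, 0.91 and 0.94 FPKM in kumquat, against 175, 215 and 193 in clementine, a log2 difference of -6.38 ± 0.228. It reached the filter through clementine alone, so its direction is no separate finding. It made up 0.252 ± 0.152% of the sum in kumquat and 22.8 ± 2.57% in clementine. Ciclev10007481m, the most abundant member in both species, was at 457, 485 and 458 in kumquat, against 428, 422 and 458 in clementine. The species overlapped for it, and the log2 difference of 0.10 had a 95% interval from -0.03 to 0.23. Its share of the sum was 82.3 ± 3.07% in kumquat and 51.2 ± 2.79% in clementine. Without Ciclev10007488m, the other 8 models summed to 565 ± 11.4 in kumquat and 658 ± 29.7 in clementine, a ratio of 0.859 in place of 0.665.

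The remaining called models of this match were all lower in kumquat. Ciclev10007484m stood at 29.5, 22.3 and 34.8 FPKM in kumquat, against 98.4, 77.4 and 66.6 in clementine (log2 difference -1.46 ± 0.186, adjusted p = 0.000415). Ciclev10007487m stood at 58.6, 36.1 and 39.8 in kumquat, against 94.6, 77.8 and 76.1 in clementine (log2 difference -0.90 ± 0.177, adjusted p = 0.00366). For both, no kumquat library reached the lowest clementine library. Ciclev10007482m averaged 7.40 ± 1.06 in kumquat and 22.1 ± 4.61 in clementine, Ciclev10007480m 8.87 ± 1.64 in kumquat and 16.7 ± 0.685 in clementine, and Ciclev10007485m 0.63 ± 0.552 in kumquat and 3.80 ± 0.586 in clementine. The last of these reached the filter through clementine alone, so its direction is no separate finding. Ciclev10007486m was also called (adjusted p = 0.0321), with 6.92 to 10.5 in kumquat overlapping 9.95 to 21.3 in clementine. Its call was lost without kumquat replicate 2 or 3 or clementine replicate 1 or 2 (adjusted p = 0.0902 to 0.0947) and with 1 prior variance for all models (adjusted p = 0.0526). Ciclev10007483m, whose number the locus tag carries, was listed at 0 in all libraries but clementine replicate 1, at 0.39.

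**Figure D3:**
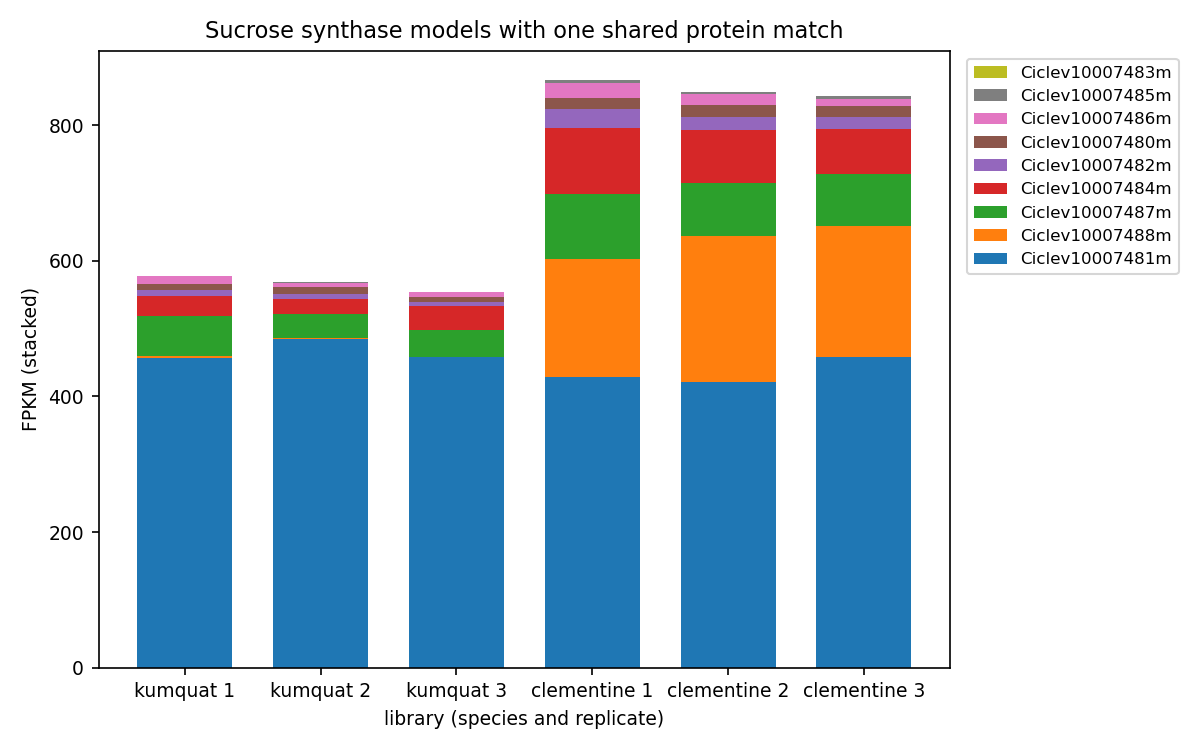
FPKM of the 9 sucrose synthase models that share one protein match, stacked for each of the 3 kumquat and 3 clementine libraries. The stacks reach 554 to 578 in kumquat and 842 to 866 in clementine. The segment of Ciclev10007481m differs little in height, and that of Ciclev10007488m is hardly visible in kumquat.

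Outside this match, sucrose synthase models were split. Ciclev10018889m, the second locus by level, stood at 155, 140.5 and 133 FPKM in kumquat, against 185, 168 and 163 in clementine, a log2 difference of -0.27 ± 0.076 (adjusted p = 0.0184). The call was lost without kumquat replicate 2 or 3 or clementine replicate 1 (adjusted p = 0.056 to 0.0622) and with 1 prior variance (adjusted p = 0.0611). Ciclev10019255m, which shares the match of Ciclev10018889m, averaged 0.103 ± 0.179 in kumquat and 3.35 ± 0.290 in clementine. It reached the filter through clementine alone, so its direction is no separate finding. The sum of these 2 models differed by -0.29 (adjusted p = 0.00733) and was not refitted with libraries left out. Ciclev10004341m went the other way, at 46.7, 37.2 and 36.7 in kumquat, against 18.0, 15.8 and 15.5 in clementine. Its lowest kumquat library was above its highest clementine library, with a ratio of means of 2.44 and a log2 difference of 1.23 ± 0.112 (adjusted p = 7.33e-05). Ciclev10011062m was also called higher, at 2.19 to 3.41 in kumquat and 1.30 to 1.59 in clementine (adjusted p = 0.0303), but not without kumquat replicate 1 or 2 or any single clementine replicate (adjusted p = 0.0511 to 0.0852). Ciclev10023168m and Ciclev10024638m lay between 1.94 and 3.81 in all libraries and were not called. Ciclev10021011m, at 7.33 ± 0.503 in kumquat and 5.66 ± 0.251 in clementine, was not called among single models (adjusted p = 0.0532) but was called higher in the fit over matches (adjusted p = 0.03), with a filter of 5 FPKM (adjusted p = 0.0425) and with 1 prior variance (adjusted p = 0.0197). In all, 2 of the 15 tested sucrose synthase models were higher and 9 lower, against 29.9% and 27.1% of all tested models. The 9 include Ciclev10007485m, Ciclev10007488m and Ciclev10019255m, which reached the filter through clementine alone. Of 7 tested matches, 3 were higher and 2 lower, against 34.5% and 30% of all matches. The count of higher models was 1 without each single library other than kumquat replicate 3.

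Invertases differed in makeup more than in sum. Ciclev10025259m stood at 25.8, 29.3 and 27.5 FPKM in kumquat, against 1.92, 1.29 and 1.67 in clementine. The groups were far apart, with a ratio of means of 16.9 and a log2 difference of 3.45 ± 0.134 (adjusted p = 1.21e-06), the largest rise among the members. It held 28.8 ± 2.07% of the invertase sum in kumquat and 1.66 ± 0.264% in clementine. Ciclev10019134m, which matched an acid beta-fructofuranosidase of sweet orange, a form that works at low pH in vacuole or cell wall, was lower at 29.0, 29.2 and 26.3 in kumquat, against 48.7, 41.9 and 41.2 in clementine (log2 difference -0.62 ± 0.085, adjusted p = 0.000611). Ciclev10007827m was lower as well, at 6.80, 6.20 and 5.50 in kumquat, against 12.1, 11.6 and 11.1 in clementine (log2 difference -0.82 ± 0.117, adjusted p = 0.000762). For both, all kumquat libraries lay below all clementine libraries. Ciclev10004465m was at 31.0 ± 1.99 in kumquat and 35.0 ± 1.07 in clementine and was not called (adjusted p = 0.07), but it was called lower with libraries scaled to their median log ratio (adjusted p = 0.031) and without kumquat replicate 1 (adjusted p = 0.0363).

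Of the 6 tested invertase models, 1 was higher and 4 were lower, against 29.9% and 27.1% of all tested models. The remaining lower ones were both under 4 FPKM. Ciclev10013701m was at 1.15 to 1.80 in kumquat and 2.70 to 3.89 in clementine (adjusted p = 0.0147), with the call lost without clementine replicate 3 (adjusted p = 0.0507). Ciclev10019787m, which shares the acid invertase match, was at 0.95 to 1.44 in kumquat and 1.68 to 3.30 in clementine (adjusted p = 0.0408). It reached the filter through clementine alone, so its direction is no separate finding. Its call was lost without clementine replicate 2 or 3 or any single kumquat replicate (adjusted p = 0.0586 to 0.125), with the replicate number as a block (adjusted p = 0.0648) and with no filter on low values (adjusted p = 0.0609). The count of lower models was 2 without clementine replicate 3 and 3 with the block. Ciclev10027399m was listed at 0 in all libraries but clementine replicate 1, at 0.24.

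Hexokinase, which phosphorylates glucose and also fructose, was higher in 5 of 6 tested models and lower in none. Over all tested models, 29.9% were higher and 27.1% lower. Ciclev10008827m, 1 of the 5, reached the filter through kumquat alone. Ciclev10008086m, the most abundant, stood at 69.9, 58.6 and 57.2 FPKM in kumquat, against 48.7, 44.6 and 41.9 in clementine, a log2 difference of 0.45 ± 0.094 (adjusted p = 0.005). Ciclev10014962m stood at 22.7, 23.0 and 21.4 in kumquat, against 14.5, 12.0 and 13.2 in clementine, a log2 difference of 0.72 ± 0.094 (adjusted p = 0.000454). In both, the lowest kumquat library was above the highest clementine library. Ciclev10025452m, at 3.65 to 4.48 in kumquat and 1.06 to 2.27 in clementine, was also higher (adjusted p = 0.00775).

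Ciclev10000939m was at 31.8, 32.0 and 33.9 FPKM in kumquat, against 24.0, 26.7 and 30.2 in clementine (log2 difference 0.27 ± 0.092, adjusted p = 0.0382). It was not called after median scaling (adjusted p = 0.0681), nor without any single library other than clementine replicate 3 (adjusted p = 0.0595 to 0.107), nor with 1 prior variance (adjusted p = 0.0734). Ciclev10008827m was at 3.57, 7.98 and 8.03 in kumquat and at 1.43, 0 and 3.14 in clementine (adjusted p = 0.024). It reached the filter through kumquat alone, so its direction is no separate finding. It lost its call without kumquat replicate 2 or 3 or clementine replicate 1 (adjusted p = 0.0527 to 0.0771) and with a pseudocount of 0.1 (adjusted p = 0.0781). It shares its match, a hexokinase of sweet orange, with Ciclev10008086m, and their sum was higher at 68.4 ± 4.45 in kumquat and 46.6 ± 3.04 in clementine (log2 difference 0.55, adjusted p = 0.000179). Ciclev10008505m and Ciclev10008828m, both matched to CICLE_v10008086mg, were lower as a sum, at 1.41 ± 0.306 in kumquat and 2.99 ± 0.375 in clementine (log2 difference -0.73, adjusted p = 0.00387). That tag carries the number of Ciclev10008086m, so the sums, split by match text, need not be separate loci. No sum over both matches was fitted. As single models, Ciclev10008828m was not called (adjusted p = 0.944) and Ciclev10008505m was not tested, since too few libraries reached 1 FPKM. Ciclev10008505m was listed at 0 in all kumquat libraries and at 1.43, 0.31 and 2.45 in clementine. With no filter on low values, 7 hexokinase models were tested, 5 higher and 1 lower. The count of higher models was 3 of 6 without kumquat replicate 2, kumquat replicate 3 or clementine replicate 1, and 4 after median scaling.

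**Figure D4:**
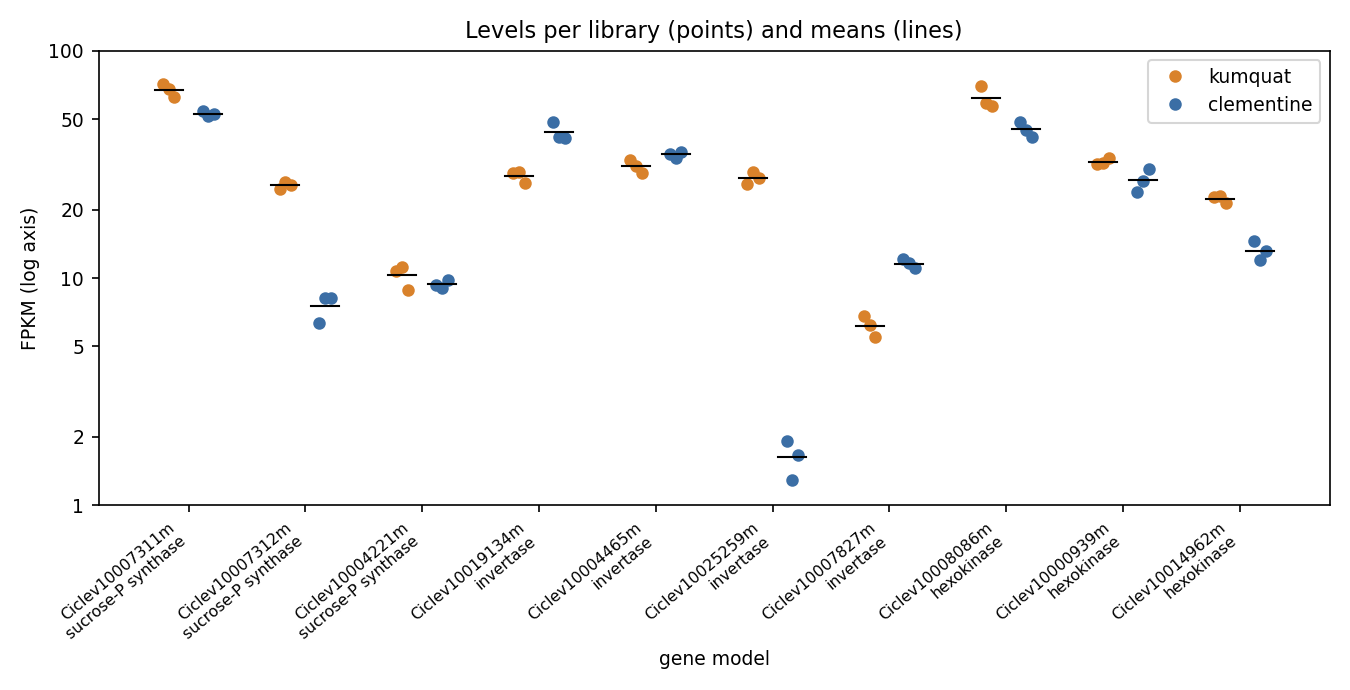
FPKM on a log axis in each library (points) and mean (lines) for the sucrose-phosphate synthase, invertase and hexokinase models with a mean of at least 10 FPKM in either species, kumquat left of clementine. The widest gap is that of Ciclev10025259m, at 25.8 to 29.3 in kumquat and 1.29 to 1.92 in clementine, and Ciclev10007312m follows.

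Fructokinase, which phosphorylates fructose alone, had 2 of 7 tested models higher and 2 lower, none of them 2-fold. The shares over all tested models were 29.9% and 27.1%. Ciclev10005308m stood at 45.0, 40.8 and 44.7 FPKM in kumquat, against 31.4, 27.3 and 26.9 in clementine, with no overlap, and was higher without each library too (log2 difference 0.59 ± 0.081, adjusted p = 0.000612). Ciclev10021105m, the most abundant, was lower at 103, 96.4 and 102 in kumquat, against 121, 114 and 107 in clementine (log2 difference -0.18 ± 0.063, adjusted p = 0.043). Ciclev10020949m was lower too, at 17.0 ± 1.29 in kumquat and 20.5 ± 0.393 in clementine (adjusted p = 0.0295). By their best protein matches, these 2 models lie close together in the RefSeq gene list of the clementine assembly Citrus_clementina_v1.0. Ciclev10019917m was higher, at 18.6 ± 1.47 in kumquat and 14.8 ± 0.735 in clementine (adjusted p = 0.0222). These 3 calls were lost when single libraries were left out. That of Ciclev10021105m was lost without kumquat replicate 2 or 3 or clementine replicate 1 or 2 (adjusted p = 0.0779 to 0.135) and with no filter on low values (adjusted p = 0.0541) or 1 prior variance (adjusted p = 0.128). That of Ciclev10020949m was lost without any single library other than kumquat replicate 3 (adjusted p = 0.061 to 0.0945), and that of Ciclev10019917m without kumquat replicate 1 or 3 or clementine replicate 2 or 3 (adjusted p = 0.0501 to 0.0705). The counts then ranged from 1 to 2 higher and from 0 to 1 lower.

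Among fructokinases that were not called, Ciclev10011546m was at 18.4 ± 2.23 FPKM in kumquat and 16.0 ± 0.993 in clementine, with a 95% interval of the log2 difference from -0.07 to 0.43. Ciclev10011551m and Ciclev10031077m lay between 4.22 and 11.5 in all libraries. Of the untested models, Ciclev10021154m was at 1.87, 1.92 and 0.96 in kumquat and at 0.39, 0.13 and 0 in clementine, and Ciclev10023850m was at 0.42 to 1.19 in kumquat and 0.90 to 0.94 in clementine. The ratio of summed hexokinase to summed fructokinase within a library was 0.604 ± 0.0257 in kumquat and 0.436 ± 0.0256 in clementine, without overlap.

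The sum of 6-phosphofructokinase followed its most abundant model, while the 3 models called higher went against the sum. Ciclev10006183m stood at 207.5, 209 and 225 FPKM in kumquat, against 320.2, 338 and 348 in clementine, a log2 difference of -0.65 ± 0.057 (adjusted p = 6.33e-05). It held 51.7 ± 1.22% of the sum in kumquat and 66.0 ± 0.869% in clementine. Ciclev10004702m was lower at 12.5 ± 0.297 in kumquat and 17.5 ± 1.26 in clementine (adjusted p = 0.00366). Ciclev10008181m was higher at 72.6, 65.4 and 63.8 in kumquat, against 53.1, 47.8 and 47.3 in clementine (log2 difference 0.44 ± 0.075, adjusted p = 0.00181).

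Ciclev10015031m, at 20.1 ± 0.117 FPKM in kumquat and 16.1 ± 1.20 in clementine (adjusted p = 0.0152), and Ciclev10025337m, at 17.5 ± 0.757 in kumquat and 13.6 ± 1.04 in clementine (adjusted p = 0.0148), were higher as well. Without clementine replicate 2 both calls were lost (adjusted p = 0.0543 and 0.0534), which left 1 higher model of 6-phosphofructokinase in place of 3. With all libraries, 3 of its 8 tested models were higher and 2 lower, against 29.9% and 27.1% of all tested models. Ciclev10007886m stood at 73.3 ± 3.91 in kumquat and 64.9 ± 4.38 in clementine and was not called (adjusted p = 0.069), but was called higher with the replicate number as a block (adjusted p = 0.0266). Ciclev10025255m and Ciclev10033025m were not called and lay between 2.13 and 7.53. The 4 models not tested, among them Ciclev10006180m and Ciclev10008042m, did not exceed 2.01 in any library.

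Enzymes next to these steps, which interconvert hexose phosphates and UDP-sugars or handle trehalose and sorbitol, were taken as a list of 14 enzyme names with 104 models. Among the 75 that could be tested, 37 rose in kumquat (49.3%, against 29.9% of all tested models), 16 fell (21.3%, against 27.1%) and 22 passed no threshold. The median difference was 0.26, against 0.04 for all tested models. Of the 75, 9 reached the filter through kumquat alone, all of them among the 37. Another 5 reached it through clementine alone, 3 of them among the 16. The filter favoured these directions, so nothing is read from the shares. Counts per enzyme below include such models, among them Ciclev10011735m, a uridylyltransferase, and Ciclev10017788m and Ciclev10000594m, diphosphate-dependent phosphofructokinases. Models annotated as UTP--glucose-1-phosphate uridylyltransferase, which makes and uses the UDP-glucose of sucrose metabolism, had 3 of 4 higher and 1 lower. They summed to 380 ± 11.8 FPKM in kumquat and 257 ± 6.18 in clementine. Phosphoglucomutase, which links glucose 1-phosphate and glucose 6-phosphate, summed to 200.4 ± 4.12 in kumquat and 159 ± 6.70 in clementine, with 2 of 3 models higher and none lower. Both models of L-iditol 2-dehydrogenase, a sorbitol dehydrogenase, were higher, with a sum of 257 ± 9.31 in kumquat and 137 ± 7.24 in clementine. Glucose-6-phosphate isomerase had 2 of 5 higher and none lower. Diphosphate-dependent phosphofructokinase, which acts on the same step as the ATP-dependent enzyme in both directions, had 4 of 7 higher and 2 lower, and summed to 322 ± 2.22 in kumquat and 276 ± 5.83 in clementine. Fructose-bisphosphate aldolase, the most abundant of the list, had 5 of 16 higher and 4 lower, and summed to 1135 ± 25.4 in kumquat and 1268 ± 4.87 in clementine.

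In each direction, the most abundant called model of an enzyme with a 2-fold or larger difference was named, 13 in all. Ciclev10030691m, annotated as trehalose 6-phosphate synthase, the enzyme of a sugar signal that tracks sucrose in plants, averaged 30.0 ± 4.01 FPKM in kumquat and 14.3 ± 1.65 in clementine (log2 difference 1.02, adjusted p = 0.000318). Ciclev10014965m, a phosphoglucomutase, averaged 19.0 ± 0.635 in kumquat and 7.13 ± 1.09 in clementine (1.31, adjusted p = 7.29e-05), and Ciclev10019935m, a UDPglucose 6-dehydrogenase, 12.1 ± 0.444 in kumquat and 4.66 ± 0.914 in clementine (1.23, adjusted p = 0.000266). Ciclev10013028m carries the KEGG name of aldolase but a WAT1-related protein as its match, and averaged 11.5 ± 2.27 in kumquat and 2.75 ± 0.560 in clementine (1.73, adjusted p = 0.000167). Ciclev10005151m, a trehalose 6-phosphate phosphatase, averaged 7.20 ± 0.480 in kumquat and 2.31 ± 0.480 in clementine (1.32, adjusted p = 0.000364). Among those lower, Ciclev10008762m, an aldolase, averaged 2.53 ± 0.513 in kumquat and 7.04 ± 0.722 in clementine (-1.19, adjusted p = 0.00069). Ciclev10000248m, another trehalose 6-phosphate synthase, averaged 2.03 ± 0.226 in kumquat and 15.1 ± 2.75 in clementine (-2.40, adjusted p = 1.79e-05), but its protein match taken as a sum was not called (log2 difference -0.10, adjusted p = 0.44).

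The other 6 named neighbours reached the filter through 1 species alone, so that their direction is no separate finding and only their values are given. Through kumquat, these were the trehalase Ciclev10023271m, at 19.1, 17.5 and 19.1 FPKM in kumquat and 0.84, 1.86 and 1.66 in clementine, the uridylyltransferase Ciclev10011735m, at 3.53 to 4.72 in kumquat and 0.78 to 1.15 in clementine, and the diphosphate-dependent phosphofructokinase Ciclev10017788m, at 1.96 to 3.13 in kumquat and 0 to 0.07 in clementine. Trehalase splits trehalose into glucose. Through clementine, they were the UDP-glucose 4-epimerase Ciclev10001690m, at 0.46 to 1.16 in kumquat and 10.1 to 12.1 in clementine, the trehalase Ciclev10000674m, at 0 to 1.98 in kumquat and 5.49 to 9.67 in clementine, and the diphosphate-dependent phosphofructokinase Ciclev10000594m, at 0 to 0.20 in kumquat and 1.33 to 1.95 in clementine. The protein matches of Ciclev10000674m and Ciclev10000594m, taken as sums, differed in the other direction, by 0.15 (adjusted p = 0.0948) and 0.21 (adjusted p = 0.00509).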

How the data were processed

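The deposited table gives FPKM for each gene model and library, computed by the authors, per the file headers, and rounded to at most 2 decimals. HISAT, StringTie and DESeq2 were used, per the submitters' processing notes. The sources used here give neither versions and parameters nor a genome build. Total depth is unknown. Relative depth was read from the most frequent ratio of values from 0.2 to 1 FPKM, over models with a protein match of their own. Files held no sequences, and none is printed.

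The fit used limma 3.58.1 (R 4.3.3) on log2(FPKM + 1), without covariates, its prior variance following the mean, over models at 1 FPKM or more in 3 or more libraries. Benjamini-Hochberg adjustment covered all 22050 models in this fit and all that was tested in each other fit, and tests are two-sided. In simulated data of 22050 models, 200 were changed and the rest had no species difference. There the test found 28% of the models given a log2 difference of 0.5 and 52% of those given 1. It found 82% of those given 2 and 98% of those given 3. Models left unchanged made up 6.47% of its calls. In the real data 57.1% of models were called, so these rates need not hold there. A protein match is the description of the best match in the table.

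Members with a mean of at least 10 FPKM in either species were named, 30 in all. Others were named after their values were seen, to complete a count. Among neighbouring enzymes, the rule took the most abundant called model at least 2-fold higher and lower per enzyme. Members and lists were chosen with earlier results of these data known.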

Additional observations from a re-analysis of the deposited data

How the results depend on the processing

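The count of higher members, 15, ranged from 13 to 16 under the other pseudocount (0.1), no filter, a filter of 5 FPKM, median scaling, the replicate number as a block, 1 prior variance, summed matches and any KEGG entry in place of the first, and from 10 to 13 with each library left out. The count of lower members, 17, ranged from 13 to 18 under the same settings, except that it was 10 over summed protein matches, which counts matches and not models, and from 12 to 16 with each library left out. The 5 members at least 2-fold lower were 3 with a filter of 5 FPKM, which tests fewer models, and 0 with matches summed. The replicate block gave 16 higher and 16 lower members. Same-numbered libraries are not known to be paired: their deviations from the species means correlated at 0.119, 0.0424 and 0.0657, each the highest for that number. Summing matches reversed Ciclev10007481m to -0.59, Ciclev10000674m to 0.15 and Ciclev10000594m to 0.21 on the log2 scale; the match of Ciclev10007481m holds 8 other models, most of them lower. Median scaling shifted the median difference of all models to 0.01. Values under about 2 FPKM limit what can be said of the 10 members not tested.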
